A study of Mus musculus with 7 samples.

Results

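A group of 10 transcripts of integrins and other adhesion molecules was followed in haematopoietic stem cell (HSC) samples from tumour-bearing and normal mice. They were picked by name, with earlier results of these data known. They were the integrin chains Itgam, Itgal, Itgb2, Itga4, Itgb1, Itga6 and Itgb7. The others were the hyaluronan receptor Cd44, the selectin ligand Selplg and the integrin ligand Icam1. All 10 were found among the 28786 genes counted, and all 10 passed the filter on low counts. The MC38 group held 4 libraries of HSCs sorted from C57BL/6J mice with tumours of MC38, a mouse colon carcinoma line, and the control group held libraries of HSCs from normal mice. Marrow came from the femora and tibiae of animals aged 6 to 8 weeks, and 1500 sorted cells went into each library. The sources used here do not give the site, size or age of the tumours, the markers of the sort, or whether a library stands for 1 animal. The p-values therefore speak of the spread among these libraries only, and that spread may be technical. The 4 MC38 libraries held 13368238 to 17657037 counts and the 2 control libraries used held 12131546 and 12306066. The third control column was left out because it tracks the sum of the other controls too tightly to count as a separate library.

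Integrins are receptors of an alpha and a beta chain that bind cells to matrix or to ligands on other cells, and the choice of partners sets the ligand. The beta chain Itgb2 (CD18) pairs with Itgal (CD11a) to form LFA-1 and with Itgam (CD11b) to form Mac-1, both of which bind Icam1. Itgb1 pairs with Itga4 to form VLA-4, a receptor of Vcam1 and fibronectin, and with Itga6 to form a laminin receptor. Itgb7 pairs with Itga4 to form a receptor of Madcam1. In bone marrow, VLA-4, Cd44 and Selplg are known for holding or guiding stem and progenitor cells, while Mac-1 is known as a surface marker of neutrophils and monocytes.

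The chains of Mac-1 rose together in MC38 libraries, Itgam 2.36-fold and Itgb2 2.06-fold. These were the 2 of 10 transcripts past the threshold of adjusted p under 0.05 in edgeR, against 1.04% of the 14226 genes tested that were called higher. No transcript of the 10 was called lower in edgeR, DESeq2 or limma-voom, beside 0.569% of all genes tested in edgeR. At an unadjusted p under 0.05 in edgeR, 5 of the 10 were higher and 0 lower, beside 9.26% and 8.22% of all genes tested. Itgam, Itgal, Itgb2, Itga4 and Selplg were each higher in every MC38 library than in both control libraries. Such a separation was present for 14.0% of all genes tested. None of the 10 had every MC38 library below both controls, beside 15.0% of all genes. The median log2 fold change was 0.43 over the 10 transcripts and 0.01 over all genes tested. Because the 10 were chosen with earlier results of these data known, these shares are not a test of the group. Itgb1, Itga6, Itgb7, Cd44 and Icam1 overlapped between the groups.

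The promoter sequences of Itgam, the transcript with the largest fold change of the 10, and of Icam1, the one closest to no change, are shown for comparison. Both are the 250 bases before the RefSeq start on the plus strand of GRCm38.p6, at chr7:128062390-128062639 for Itgam and chr9:21015690-21015939 for Icam1. Capitals mark GAGGAA on either strand, a core sequence of the kind bound by the myeloid factor PU.1, and GGAANTTCC, which reads the same on both strands, a sequence of the kind bound by NF-kB. The motifs do not overlap each other and were chosen after the sequences were seen.
Itgam: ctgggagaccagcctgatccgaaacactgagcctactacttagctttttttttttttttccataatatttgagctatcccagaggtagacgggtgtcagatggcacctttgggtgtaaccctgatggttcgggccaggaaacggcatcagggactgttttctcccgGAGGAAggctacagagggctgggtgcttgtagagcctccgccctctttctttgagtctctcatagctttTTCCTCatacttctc
Icam1: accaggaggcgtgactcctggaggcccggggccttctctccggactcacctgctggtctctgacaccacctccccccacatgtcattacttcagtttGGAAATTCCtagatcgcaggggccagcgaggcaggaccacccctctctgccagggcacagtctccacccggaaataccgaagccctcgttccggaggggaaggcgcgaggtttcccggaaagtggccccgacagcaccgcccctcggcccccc
The Itgam window held GAGGAA from base 84 to base 79 before the start, and its reverse complement TTCCTC from base 15 to base 10. The Icam1 window held GGAANTTCC from base 153 to base 145 before the start. Of 32851 promoter windows of this length, 23.3% held GAGGAA and 0.813% held GGAANTTCC. Windows were on hand for 6 of the 10 genes, and GAGGAA was also present for Itgb1 and Cd44, which did not pass the test, while Itga4 and Itgb7 held neither motif. A match describes the letters in the window and is not evidence of binding.

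Itgam, the alpha chain of Mac-1 (ENSMUSG00000030786, chromosome 7: 128062640 to 128118491), was at 68.6, 60.0, 74.5 and 84.6 CPM in MC38 replicates 1 to 4, against 27.1 and 33.8 CPM in control replicates 1 and 2. CPM here are TMM-scaled counts, brought to the same total in each library. All 4 MC38 libraries stood above both controls, and the lowest of them was clear of the higher control. The means were 71.9 ± 10.4 CPM in MC38 and 30.4 ± 4.68 CPM in control libraries (SD, n = 4 and 2), and Itgam passed with an edgeR adjusted p = 0.0155 at a log2 fold change of 1.24 ± 0.20 (SE). Over 16 alternatives the adjusted p ran between 4.97e-07 and 0.179. The call was lost on leaving out control replicate 1 (edgeR, 0.179), control replicate 2 (0.0749) or MC38 replicate 4 (0.0527). In GENCODE M21 a read-through gene, Gm49368, shares 68.7% of the Itgam exon bases on the same strand. Gm49368 is not listed among the deposited genes. Whether the authors' annotation held it, on which the Itgam count would depend, is a point the labels leave unstated.

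Itgb2, the beta chain shared by the leukocyte integrins (ENSMUSG00000000290, chromosome 10: 77530252 to 77565708), was at 148.2, 148.4, 156.0 and 153.4 CPM in MC38 replicates 1 to 4, against 80.8 and 66.4 CPM in the controls. The MC38 libraries lay close together and far from both controls. The means were 151.5 ± 3.88 CPM in MC38 and 73.6 ± 10.2 CPM in control libraries (SD, n = 4 and 2), and the log2 fold change was 1.04 (SE 0.13, edgeR adjusted p = 0.00453). The Itgb2 call was lost on leaving out control replicate 2 (edgeR adjusted p = 0.0695), and it was kept in the other 15 alternatives, with a range of 1.02e-10 to 0.0695.

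Itgal, the alpha chain of LFA-1 (ENSMUSG00000030830, chromosome 7: 127296260 to 127335138), was at 70.6, 52.2, 69.6 and 70.4 CPM in MC38 replicates 1 to 4 and at 44.1 and 36.5 CPM in the controls. MC38 replicate 2 was apart from the other 3 MC38 libraries but still above both controls. The log2 fold change was 0.71 (SE 0.19), and Itgal did not pass (edgeR adjusted p = 0.0994). It did pass with DESeq2 (adjusted p = 0.0155) and in edgeR with all 7 columns (adjusted p = 0.0161). The fit with all 7 columns counts the left-out control column as a separate library, so its p-values overstate the evidence.

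**Figure D1:**
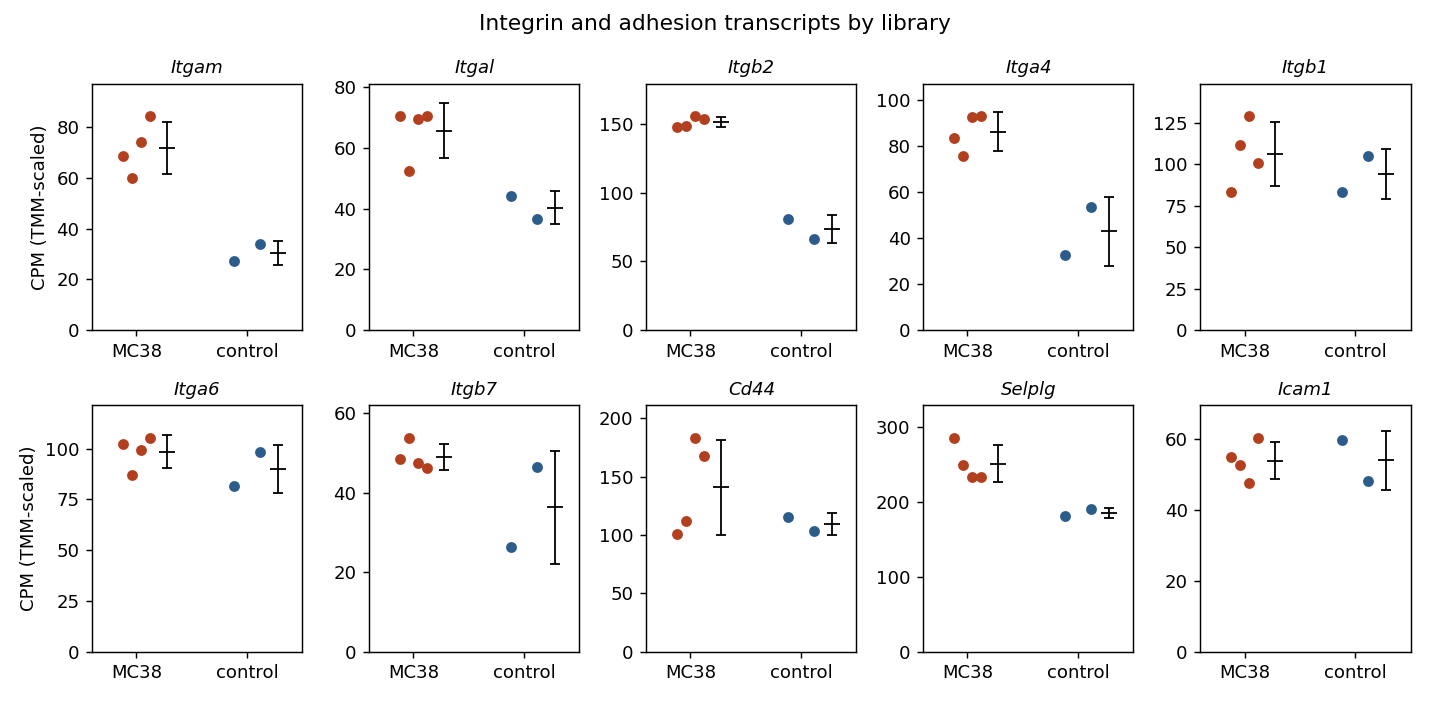
CPM after TMM scaling of each of the 10 transcripts in the 4 MC38 and 2 control libraries, with a point per library and a bar for mean ± SD beside it. Itgam, Itgal, Itgb2, Itga4 and Selplg have all MC38 points above both control points, and the Cd44 points of MC38 fall into a lower and a higher pair.

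The neutrophil transcripts moved in the same direction as the Mac-1 chains. A list of 12 neutrophil markers, S100a8 and Ngp among them, summed to 54306 to 61954 CPM in MC38 libraries and to 28181 and 28491 CPM in controls, and 9 of the 12 were called higher in edgeR and 0 lower. The summed level was 2.05-fold higher in MC38, beside 2.36-fold for Itgam and 2.06-fold for Itgb2. S100a8 leads the sum, and without it the other 11 markers were 2.12-fold higher together. Itgam stood at 1.11, 1.01, 1.37 and 1.47 CPM per 1000 CPM of neutrophil markers in MC38 replicates 1 to 4, against 0.952 and 1.20 in the controls. Itgb2 stood at 2.39, 2.51, 2.87 and 2.67 on the same scale in MC38, against 2.84 and 2.36 in the controls. Relative to this sum of neutrophil markers, led by S100a8 and S100a9, both chains therefore overlapped between the groups. The part of neutrophil transcripts in the rise of Itgam and Itgb2 was not tested. In bulk libraries, more cells of a type and more RNA per cell cannot be told apart.

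Markers of other cells were present too. The 14 macrophage and dendritic cell markers summed to 679 to 783 CPM in MC38 and to 530 and 538 CPM in control libraries, and Ly6c2 makes up most of that sum. Without Ly6c2 the other 13 summed to 245.5, 226.5, 254.8 and 241.6 CPM in MC38 and to 149.0 and 132.2 CPM in control libraries, 1.72-fold apart. Of the 14, edgeR called C1qa and Siglech higher and 0 lower, with 7 higher and 0 lower at an unadjusted p under 0.05, and DESeq2 called 6 higher, C1qb, C1qc, Cd68 and Cd14 besides those. C1qa, a chain of the complement protein C1q that macrophages make, was at 5.38, 4.79, 4.12 and 2.96 CPM in MC38 and at 0.084 and 0.248 CPM in control libraries. These are few reads, at 40 to 80 counts in MC38 and 1 and 3 counts in control libraries. Csf1r, Itgax, Mrc1 and Fcgr1 were among the markers of this list that overlapped between the groups. Csf1r was at 14.9 to 23.7 CPM in MC38 and 20.8 and 22.0 CPM in controls. Siglech leads the sum without Ly6c2 in MC38, at 65.2 to 74.0 CPM, against 34.3 and 24.5 CPM in controls. The 10 B cell markers summed to 4613 to 5702 CPM in MC38 and to 2458 and 2921 CPM in controls, and the B cell list is led by Igkc and Ighm. Of the B cell markers edgeR called 2 higher and 0 lower, with 3 higher and 0 lower at an unadjusted p under 0.05, and DESeq2 called 3 higher. The sum of the 13 T and NK cell markers overlapped between the groups, at 427 to 468 CPM in MC38 and 433 and 497 CPM in control libraries, and Nkg7 makes up most of it, at 326 to 388 CPM in MC38 and 453 and 388 CPM in controls. Without Nkg7 the other 12 did not overlap, at 96.8, 80.2, 78.7 and 101.1 CPM in MC38 and 44.6 and 45.7 CPM in control libraries, 1.98-fold apart. Of those 12, 6 were higher in every MC38 library than in both controls, a separation present for 14.0% of all genes tested. Of the 13, edgeR called 0, with 6 higher and 0 lower at an unadjusted p under 0.05, and DESeq2 called Cd3g, Trbc2, Klrb1c and Gzmb higher. The 15 HSC markers, Procr, Hlf and Mecom among them, were all detected and summed to 2018 to 2308 CPM in MC38 and 2164 and 2339 CPM in control libraries. Of the HSC markers edgeR called 0, with 1 higher and 2 lower at an unadjusted p under 0.05, and DESeq2 called 1 higher and 1 lower. The cells are labelled HSC, and in every library the summed neutrophil markers exceeded the summed HSC markers. Megakaryocyte markers summed to 360 to 420 CPM in MC38 and 433 and 453 CPM in controls, and erythroid markers to 359 to 413 CPM in MC38 and 454 and 542 CPM in controls. Mast cell and basophil markers summed to 444 to 481 CPM in MC38 and 470 and 545 CPM in controls, and stromal and endothelial markers to 158 to 186 CPM in MC38 and 129 and 142 CPM in controls. Without its leading gene Gata2 the mast cell and basophil sum was 219 to 234 CPM in MC38 and 200 and 173 CPM in controls. Hdc made up most of that rest in MC38, at 165 to 196 CPM, against 78.7 and 73.8 CPM in controls. Cpa3 was also higher, at 25.4 to 35.9 CPM against 23.9 and 23.7 CPM. Prss34 went the other way, at 0 to 7.73 CPM in MC38 and 55.2 and 37.1 CPM in controls. So did Mcpt8, at 6.7 to 9.5 CPM in MC38 and 31.8 and 31.9 CPM in controls. Without Car1 the erythroid sum overlapped, at 163 to 185 CPM in MC38 and 265 and 182 CPM in controls. Among these 4 lists edgeR called Hdc higher and Mcpt8 lower, both of the mast cell and basophil list, and no other marker. Ms4a2 of the mast cell list and Gp6 of the megakaryocyte list were at 0 in all 6 libraries. The part of these cell types in the integrin values was not tested.

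Itga4, the alpha chain of VLA-4 (ENSMUSG00000027009, chromosome 2: 79255426 to 79333123), was at 83.3, 75.8, 92.6 and 93.1 CPM in MC38 replicates 1 to 4 and at 32.3 and 53.6 CPM in the controls. Every MC38 library was above both controls, and the controls differed widely from each other. The means were 86.2 ± 8.29 CPM in MC38 and 43.0 ± 15.0 CPM in control libraries (SD, n = 4 and 2). The log2 fold change was 1.00 (SE 0.22), close to that of Itgb2, but Itga4 did not pass (edgeR adjusted p = 0.0544). It passed in 8 of 16 alternatives, among them DESeq2 (adjusted p = 0.000501). The fit with all 7 columns was another (edgeR adjusted p = 0.00959), but it counts the left-out control column as a separate library, which overstates the evidence. The fit with the replicate number as a block was also among them and takes its fold change from replicates 1 and 2 only. The log2 fold change of Itga4 was lowest without control replicate 1, at 0.69. Cerkl overlaps Itga4 on the other strand over 8.04% of its exon bases and had 68 to 112 counts in MC38 and 110 and 112 in control libraries.

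Itgb1 and Itga6, the other chains of the VLA integrins, showed little difference. Itgb1 (ENSMUSG00000025809, chromosome 8: 128685654 to 128733200) was at 83.4, 111.6, 129.4 and 100.8 CPM in MC38 replicates 1 to 4 and at 83.3 and 104.9 CPM in the controls, so that its log2 fold change was 0.18 ± 0.19 (SE, edgeR adjusted p = 0.685). Itga6 (ENSMUSG00000027111, chromosome 2: 71745616 to 71858416) was at 102.3, 87.2, 99.3 and 105.5 CPM in MC38 and at 81.6 and 98.1 CPM in the controls, so that its log2 fold change was 0.13 ± 0.14 (SE, edgeR adjusted p = 0.690). Both overlapped between the groups, and neither passed in any of 16 alternatives.

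Itgb7, the other beta partner of Itga4 (ENSMUSG00000001281, chromosome 15: 102215995 to 102231944), was at 48.5, 53.9, 47.4 and 46.3 CPM in MC38 replicates 1 to 4 and at 26.3 and 46.5 CPM in the controls. Control replicate 2 lay within the range of the MC38 libraries and control replicate 1 lay well below it. The log2 fold change was 0.43 (SE 0.23, edgeR adjusted p = 0.376), and it ran from 0.08 without control replicate 1 to 0.90 without control replicate 2.

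**Figure D2:**
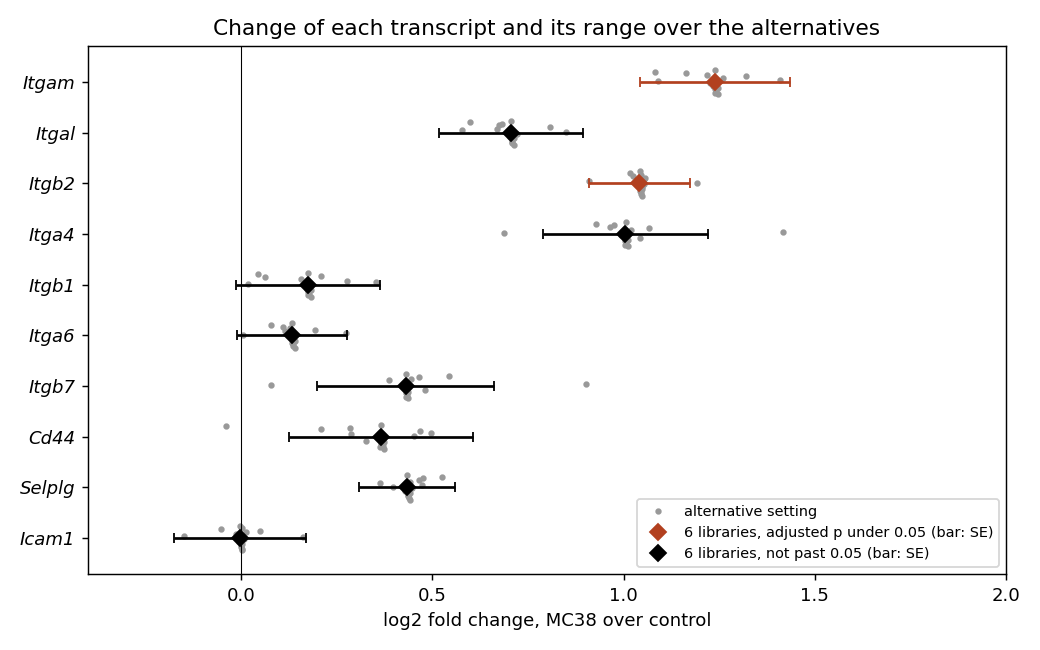
Log2 fold change of MC38 over control for each transcript (diamond, bar for SE, 6 libraries) with its value under each of 16 alternative settings (grey points). Itgam at 1.24 and Itgb2 at 1.04 are the 2 past an edgeR adjusted p of 0.05, Itga4 at 1.00 lies just short of it, and Icam1 lies at 0.

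Selplg, the main ligand of P-selectin on leukocytes (ENSMUSG00000048163, chromosome 5: 113818536 to 113832644), was at 285.6, 249.2, 233.6 and 233.6 CPM in MC38 replicates 1 to 4 and at 180.6 and 190.2 CPM in the controls. All MC38 libraries were higher than both controls. The log2 fold change was 0.43 (SE 0.13), and Selplg did not pass (edgeR adjusted p = 0.120). It passed with DESeq2 (adjusted p = 0.0221) and in edgeR with all 7 columns (adjusted p = 0.0202). As for Itgal, the p with all 7 columns overstates the evidence, because the left-out control column is not a separate library.

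Cd44, the hyaluronan receptor (ENSMUSG00000005087, chromosome 2: 102811141 to 102901665), was at 100.7, 111.9, 183.4 and 167.5 CPM in MC38 replicates 1 to 4 and at 115.7 and 102.9 CPM in the controls. MC38 replicates 1 and 2 were at the level of the controls, and MC38 replicates 3 and 4 were above them. The same pairs of MC38 libraries were also the closest to each other over all genes. The spread within MC38, 141 ± 40.7 CPM (SD, n = 4), was larger than the difference from the control mean of 109 ± 9.02 CPM (SD, n = 2), and Cd44 did not pass (log2 fold change 0.37, SE 0.24, edgeR adjusted p = 0.477).

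Icam1, the ligand of both LFA-1 and Mac-1 and a gene induced by NF-kB and interferon gamma (ENSMUSG00000037405, chromosome 9: 21015985 to 21028817), was at 54.9, 52.8, 47.7 and 60.5 CPM in MC38 replicates 1 to 4 and at 59.9 and 48.2 CPM in the controls. Both control values fell within the range of the MC38 libraries. The means were 54.0 ± 5.29 CPM in MC38 and 54.1 ± 8.27 CPM in control libraries (SD, n = 4 and 2), and the edgeR log2 fold change was -0.0023 (SE 0.17, edgeR adjusted p = 0.998). An antisense gene, Gm47079, shares 11.7% of the Icam1 exon bases and is not listed among the deposited genes. Without a stated strand setting, reads of the pair cannot be told apart.

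To compare genes with each other, counts were divided by the length of the union of exons and scaled to a common total over all genes, a TPM-like level. Selplg was the highest of the 10 in all 6 libraries, at 113 ± 6.36 in MC38 and 85.9 ± 5.14 in control libraries. Itgb2 came second in the mean of both groups, with a level of 95.7 ± 6.99 in MC38 and 47.6 ± 5.51 in control libraries. In MC38 the levels of Itgb2 were clear of those of the next gene, Itgb1, while in the controls the order of Itgb2 and Itgb1 differed between the libraries. Itgam was sixth of the 10 by its MC38 mean, with a level of 27.7 ± 4.85, and ninth by its control mean, with a level of 12.0 ± 2.13. Its neighbours in the MC38 order, Itgb7 above and Icam1 below, overlapped with it, as did Itgal in the controls. Itga4 was the lowest of the 10 in all 6 libraries, at 11.9 ± 1.62 in MC38 and 6.11 ± 2.27 in control libraries. From Itgb1 down to Itgal, no pair of neighbours in the MC38 order was apart in its ranges.

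**Figure D3:**
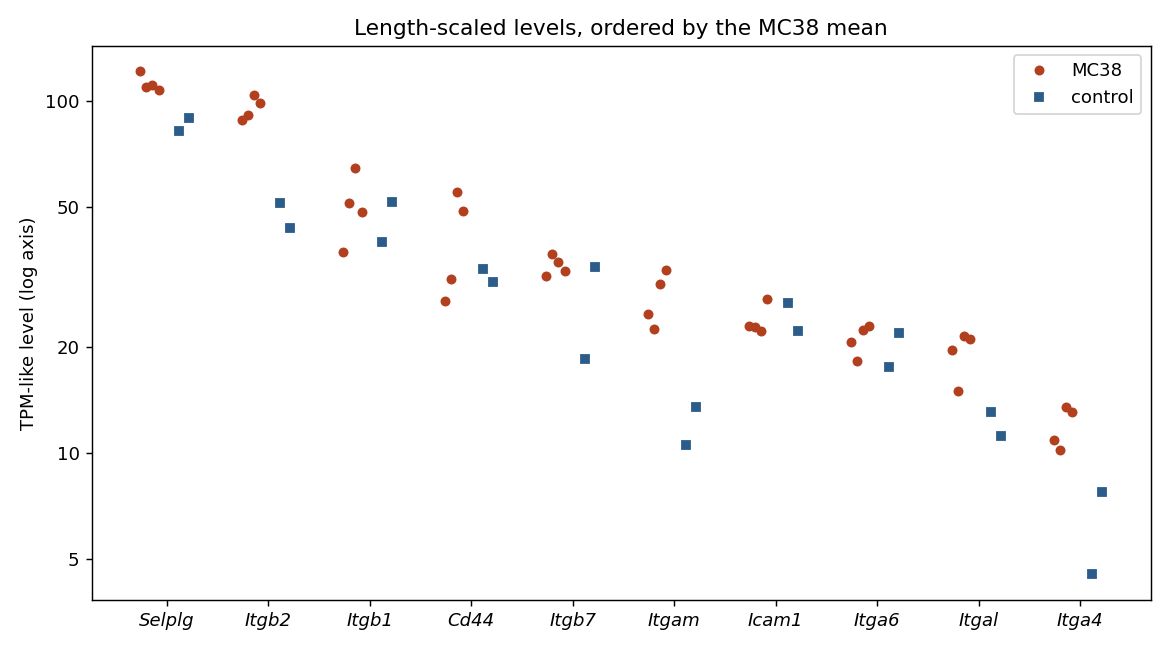
TPM-like levels on a log axis, with a point for each MC38 library and a square for each control library, in the order of the MC38 means. Selplg and Itgb2 stand above the rest in MC38, Itga4 is lowest in all 6 libraries, and Itgam lies at 22.5 to 33.1 in MC38 against 10.5 and 13.5 in controls.

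With the length of the longest transcript in place of the union of exons, Selplg, Itgb2 and Itga4 kept their ranks, and Itgam was eighth in MC38 and ninth in controls. Itga6 moved to rank 5 in both groups. Its union of exons, at 9025 bases, is much longer than its longest transcript, at 4310 bases.

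The balance between chains was compared within each library as a share of TPM-like levels, which does not depend on the scaling of the libraries. Itgam made up 55.9, 60.0, 58.3 and 61.1% of Itgam and Itgal together in MC38 replicates 1 to 4, against 44.6 and 54.7% in the controls. Itga4 made up 34.5, 35.9, 37.6 and 36.3% of Itga4 and Itga6 together in MC38, against 20.4 and 26.1% in the controls. Itgb2 made up 56.1, 50.9, 51.1 and 54.8% of the 3 beta chains in MC38, against 47.0 and 33.9% in the controls. In these 3 shares every MC38 library was above both controls. The differences were 9.18, 12.8 and 12.9 percentage points in that order, each with an exact two-sided permutation p = 0.0667, the smallest that 15 splits of 6 libraries allow, and 0.0889 after Benjamini-Hochberg adjustment over 4 shares. The threshold of 0.05 could not be reached with these libraries. Itgb7 made up 46.1, 41.6, 35.1 and 40.4% of Itgb1 and Itgb7 together in MC38 and 31.7 and 39.5% in the controls, and these overlapped (exact permutation p = 0.333, also 0.333 after adjustment). Leaving out control replicate 1 lowered the Itgam difference to 4.10 points, and leaving out control replicate 2 raised it to 14.3 points. The Itgb2 difference was 19.4 points without control replicate 1 and 6.31 points without control replicate 2, and the Itgb7 difference was 1.30 points and 9.06 points in the same order.

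**Figure D4:**
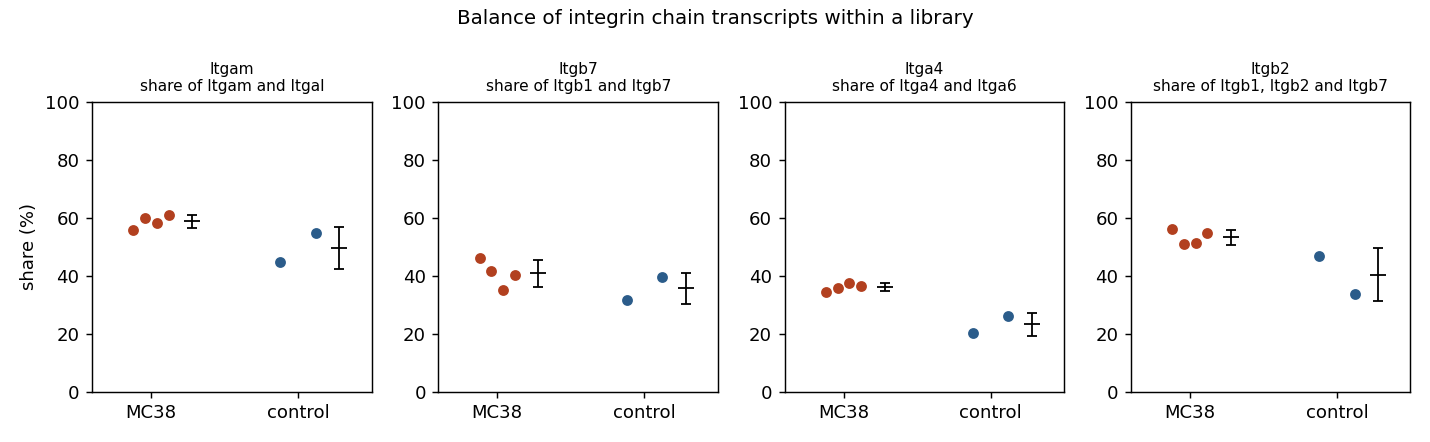
Share of a chain in the summed TPM-like level of the chains named in each panel, in percent, for the 4 MC38 and 2 control libraries, with mean ± SD beside the points. The MC38 points lie above both control points for Itgam, Itga4 and Itgb2, and overlap with them for Itgb7.

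Other genes of integrin biology and adhesion were followed in 6 lists of 144 genes, of which 127 were tested. EdgeR called 2 higher and 0 lower, or 1.57% higher, beside 1.04% higher and 0.569% lower of all genes tested. At an unadjusted p under 0.05, 26 were higher and 5 lower, or 20.5% and 3.94%, beside 9.26% and 8.22% of all genes. DESeq2 called 16 higher and 2 lower, or 12.6% and 1.57%, beside 4.40% and 2.79% of all genes with an adjusted p. Limma-voom called 1 higher and 0 lower, or 0.787% higher, beside 0.633% and 0.499% of all genes. These shares of all genes are also the ones to set beside the counts of each list below. The median log2 fold change of the 127 genes was 0.15, beside 0.01 for all genes tested. Lists and members were chosen with earlier results of these data known.

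Among the other integrin subunits listed, 11 of 19 were tested and 0 were called by edgeR, DESeq2 or limma-voom. In edgeR 0 were at an unadjusted p under 0.05 in either direction, and the median log2 fold change was -0.095. The integrin gene Itgb2l lies outside the lists and was looked up after its values were seen. It was at 66.4, 61.3, 82.8 and 75.8 CPM in MC38 and at 31.5 and 36.2 CPM in control libraries. EdgeR called Itgb2l higher (adjusted p = 0.0209). Itga5, the fibronectin receptor chain, was at 56.6, 31.2, 34.2 and 38.7 CPM in MC38 and 23.5 and 32.4 CPM in control libraries (edgeR adjusted p = 0.367). The platelet integrin chains Itga2b and Itgb3 were at 109 ± 12.3 and 81.8 ± 8.65 CPM in MC38 and at 117 ± 17.9 and 72.0 ± 2.99 CPM in control libraries (SD, n = 4 and 2), and neither passed (edgeR adjusted p = 0.810 and 0.584).

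Of the genes that activate integrins or link them to the cytoskeleton, 40 of 42 were tested, and 1 was called higher and 0 lower by edgeR. The unadjusted counts were 8 higher and 1 lower, and DESeq2 called 4 higher and 1 lower, and limma-voom none. Fgr, a Src family kinase that signals downstream of Itgb2 integrins in neutrophils, was at 56.4, 54.9, 59.2 and 59.6 CPM in MC38 and at 33.4 and 19.8 CPM in control libraries. The groups were well apart, and Fgr rose 2.16-fold (1.11 ± 0.22 on the log2 scale, SE, edgeR adjusted p = 0.0449). The Fgr call was lost without control replicate 2 (edgeR adjusted p = 0.135), MC38 replicate 2 (0.111) or MC38 replicate 4 (0.133), and with limma-voom (0.0504). Crkl, an adaptor of adhesion signalling, was at 6.07 ± 1.76 CPM in MC38 and 17.5 ± 4.20 CPM in control libraries (SD, n = 4 and 2, edgeR adjusted p = 0.0737). Fermt3 (kindlin-3) and Tln1 (talin), which bind the beta chain tails to activate them, lie outside the naming rule and were looked up after their values were seen. Fermt3 was at 216 to 310 CPM in MC38 and 253 and 272 CPM in control libraries (edgeR adjusted p = 0.967), and Tln1 at 391 to 546 CPM in MC38 and 360 and 405 CPM in control libraries (edgeR adjusted p = 0.413).

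Among selectins, their ligands and the enzymes that glycosylate them, 19 of 20 genes were tested and 0 were called by edgeR or limma-voom. The unadjusted counts were 3 higher and 0 lower, and DESeq2 called 3 higher and 0 lower. C1galt1c1, the chaperone of the enzyme that extends O-glycans, was at 24.6 ± 3.69 CPM in MC38 and 12.2 ± 0.97 CPM in control libraries (SD, n = 4 and 2, edgeR adjusted p = 0.0821). St3gal6, a sialyltransferase, was at 35.0 ± 3.17 CPM in MC38 and 20.7 ± 4.79 CPM in control libraries (SD, n = 4 and 2, edgeR adjusted p = 0.121).

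Of 22 tested among 25 immunoglobulin superfamily and cadherin genes, 0 were called by edgeR or limma-voom. The unadjusted counts were 7 higher and 1 lower, and DESeq2 called 4 higher and 0 lower. Pvr, a ligand of receptors on T and NK cells, was at 18.4 ± 6.18 CPM in MC38 and 6.21 ± 0.96 CPM in control libraries (SD, n = 4 and 2, edgeR adjusted p = 0.0801). Cd244a, a receptor of Cd48, was at 19.5 ± 4.03 CPM in MC38 and 7.81 ± 2.14 CPM in control libraries (SD, n = 4 and 2, edgeR adjusted p = 0.0806). Thy1 was at 17.1 ± 3.51 CPM in MC38 and 8.65 ± 1.19 CPM in control libraries (SD, n = 4 and 2, edgeR adjusted p = 0.150).

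Of 16 tested among 19 genes of hyaluronan, Cd44 linkers and matrix ligands, 1 was called higher and 0 lower by edgeR. The unadjusted counts were 4 higher and 1 lower, DESeq2 called 2 higher and 1 lower, and limma-voom called 1 higher and 0 lower. Mmp9, a gelatinase stored in neutrophil granules and 1 of the 12 neutrophil markers above, was at 365.7, 405.3, 343.8 and 337.6 CPM in MC38 and at 187.3 and 182.4 CPM in control libraries. The groups were far apart, and Mmp9 rose 1.96-fold (0.97 ± 0.12 on the log2 scale, SE, edgeR adjusted p = 0.00434). Leaving out control replicate 1 (edgeR adjusted p = 0.0919) or control replicate 2 (0.0745) ended the Mmp9 call. Fn1, the fibronectin bound by VLA-4, was at 2.02, 2.39, 2.17 and 4.74 CPM in MC38 and at 16.0 and 8.42 CPM in control libraries, with no overlap (edgeR adjusted p = 0.0670). Msn, which links Cd44 and Selplg to actin, was at 222 ± 24.1 CPM in MC38 and 163 ± 37.6 CPM in control libraries (SD, n = 4 and 2, edgeR adjusted p = 0.198).

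All 19 genes of homing, retention and cell migration were tested, and 0 were called by edgeR or limma-voom. The unadjusted counts were 4 higher and 2 lower, and DESeq2 called 3 higher and 0 lower. Rac2, the GTPase of blood cells that acts in their adhesion and migration, was at 578 ± 41.2 CPM in MC38 and 414 ± 8.90 CPM in control libraries (SD, n = 4 and 2, edgeR adjusted p = 0.0676). Cd9, a tetraspanin partner of integrins, was at 412 ± 22.3 CPM in MC38 and 298 ± 46.2 CPM in control libraries (SD, n = 4 and 2, edgeR adjusted p = 0.102). Cxcl12, the chemokine that retains stem cells in marrow, was at 11.6 ± 2.01 CPM in MC38 and 4.84 ± 1.24 CPM in control libraries (SD, n = 4 and 2, edgeR adjusted p = 0.122).

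**Figure D5:**
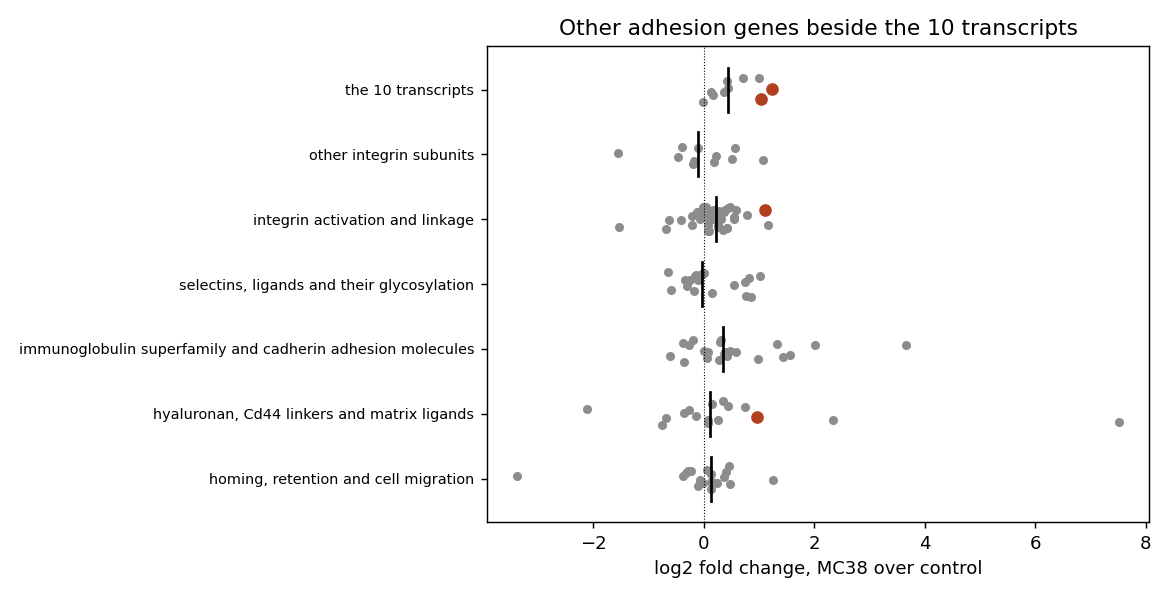
Log2 fold change of MC38 over control for the 10 transcripts and for every tested gene of 6 adhesion lists, with a point per gene, a black line at the median and larger points for edgeR calls. The calls are Itgam and Itgb2 among the 10, Fgr among the activation and linkage genes and Mmp9 among the hyaluronan and matrix genes.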

How the data were processed

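The authors deposited whole-number read counts per Ensembl gene for 7 libraries. The submitters' processing notes name HTSeq 0.10.0, STAR 2.6.1, Trim Galore 0.5.0 and mm10. Per the labels' protocols, polyadenylated RNA was amplified with 12 PCR cycles and no molecular identifiers are named, so PCR copies count as reads. The sources used here state neither the annotation release nor the strand setting.

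Symbols were matched for 27728 of 28786 gene IDs, and lengths and coordinates come from GENCODE M21 (GRCm38, the assembly of mm10). Promoters come from RefSeq tables of GRCm38.p6. Control column 3 was left out: its ratio to the sum of the other controls had a median of 0.353 over 9652 genes, with 95% between 0.342 and 0.371. Among the 6 libraries used, no pair in a group agreed within sampling noise (chi-square per degree of freedom 15.2 to 75.1). This statistic was not computed for control column 3. The lowest values in MC38 were 15.2 for replicates 1 and 2 and 16.05 for replicates 3 and 4.

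MC38 was compared with control in edgeR 4.0.16 (R 4.3.3) with filterByExpr, TMM, the quasi-likelihood test in its robust form, and Benjamini-Hochberg adjusted p-values over 14226 genes, two-sided, at 0.05. The common biological coefficient of variation was 0.366. DESeq2 1.42.0, limma-voom (limma 3.58.1), other scalings and filters, all 7 columns, a replicate block and each library left out were alternatives. With 1 control left, that library is assumed to vary like the MC38 ones. On simulated counts of this size at one common dispersion the fit called only a minority of the genes given a known fold change, so a gene short of the threshold is not shown to be unchanged. Shares were compared by exact permutation.

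Named were the 10 transcripts and, from each adhesion list, every gene past the threshold and the 3 of smallest p, with a mean of at least 5 CPM. The results of 2 of these genes are not reported here. Members and lists were chosen with earlier results of these data known.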

Additional observations from a re-analysis of the deposited data

Results flagged for a closer look

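Each transcript and share covered by the naming rule was screened for a single MC38 library far from the other 3, and 2 of 32 were found. Chance gives about 1 in 20. For Itgal, MC38 replicate 2 was at 52.2 CPM and the others at 69.6 to 70.6 CPM, and its gap to the nearest library was 0.945 of the range of the group. For Fn1, MC38 replicate 4 was at 4.74 CPM and the others at 2.02 to 2.39 CPM, a gap of 0.862 of the range. Both MC38 libraries kept the side of the controls that the other MC38 libraries had, with Itgal at 44.1 and 36.5 CPM and Fn1 at 16.0 and 8.42 CPM in the controls.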

How the results depend on the processing

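The labels do not say that the replicate numbers pair the libraries. Same-numbered libraries deviated from their group means with correlations of 0.061 and -0.017 over genes. These values show no sign of pairing but cannot exclude it. Only numbers 1 and 2 occur in both groups used, so a block by replicate number takes its fold change from those libraries alone. The other MC38 libraries do not inform it. With this block the edgeR log2 fold change was 0.93 for Itga4 and 0.53 for Selplg, both then past the threshold. It was -0.039 for Cd44 and 0.0018 for Icam1, which had their signs turned. Under this block 4 of the 10 transcripts, 269 genes in all and 6 adhesion list genes were called higher, and 190 genes in all were called lower.

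DESeq2 called 5 of the 10 higher, with log2 fold changes of 0.71 for Itgal, 1.01 for Itga4 and 0.44 for Selplg. It called 626 genes higher and 396 lower in all, and 16 and 2 in the adhesion lists. With all 7 columns, edgeR also called 5 of the 10, with 0.72 for Itgal, 0.99 for Itga4 and 0.45 for Selplg. It then called 791 genes higher and 663 lower in all, and 21 and 2 in the lists. The shares of Itgam, Itga4 and Itgb2 then differed by 8.69, 12.6 and 13.1 points with an exact permutation p = 0.0286, the smallest those splits allow. This p is not valid as a test, because the added control column tracks the sum of the other controls too tightly to count as a separate library. The edgeR calls with all 7 columns rest on the same column and overstate the evidence. Without a low-count filter Itga4 passed at 1.01, and 302 genes were higher and 202 lower, with 7 and 2 in the lists. With at least 5 CPM in 2 libraries Itga4 passed at 1.00, 137 genes were lower, and 4 list genes were higher. Limma-voom called 90 genes higher, and 1 list gene.

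The Icam1 log2 fold change, close to 0, changed sign with RLE factors (0.0037), upper-quartile factors (0.0022), no filter (0.0010), DESeq2 (0.0035) and all 7 columns (0.0084). Leaving out each library in turn gave -0.15 to 0.16 for Icam1, 1.09 to 1.41 for Itgam, 0.91 to 1.19 for Itgb2 and 0.69 to 1.42 for Itga4. It gave 1 to 3 of the 10 transcripts called higher, 44 to 259 genes higher and 16 to 183 lower in all, and 1 to 4 higher and 0 to 1 lower in the lists. Itgb1, Itga6, Itgb7, Cd44 and Icam1 passed in none of the 16 alternatives. The causes were not tested. With 2 control libraries, each control value carries much weight.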

Other observations

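Control column 3, which entered only the alternative with all 7 columns, held 268 for Itgam, 618 for Itgb2 and 376 for Itga4. These are 0.366, 0.350 and 0.364 of the summed counts of the other controls, and over the 10 transcripts this ratio ran from 0.346 for Itgal to 0.366 for Itgam.

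Some genes of the adhesion lists did not pass the filter on low counts, among them Itgad, an alpha partner of Itgb2, with 3, 2, 3 and 4 counts in MC38 and 1 and 3 counts in control libraries. Madcam1, the ligand of the Itga4 and Itgb7 pair, had 0, 0, 0 and 4 counts in MC38 and 5 and 2 counts in control libraries. These genes were picked out after their values were seen.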
